A study of Homo sapiens with 3 samples.

Results

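These results describe 1373 peaks of H3K27ac, acetylation of histone H3 at lysine 27, that were listed in control cells at the ends of protein-coding genes and had no counterpart after BPP treatment. The cells were A2780, an established line of human ovarian carcinoma, profiled by CUT&Tag; in this assay an antibody brings a transposase to the mark, and the DNA beside it is cut and sequenced. The BPP library came from cells treated with BPP, a peptide that the submitters describe as a competitor of BIN2 phosphorylation, and the CTR library was its H3K27ac control. The design text names a TAT peptide as comparator for RNA-seq, and whether the CTR cells had it is not stated. The IgG library, made with a non-specific antibody, measured background. Each group was 1 library, so no difference has a replicate check and no p-value was computed.

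A member is a CTR peak on chromosomes 1 to 22 or X that has no BPP peak within 1 kb and overlaps a window of 1 kb on either side of the start or end coordinate of a protein-coding gene (RefSeq, GRCh38). These peaks are called CTR-only gene-end peaks below. They were 1373 of 5397 CTR gene-end peaks (25.4%), of 14836 CTR peaks and of 40378 peaks in the 3 lists. The members were chosen by the positions of CTR and BPP peaks, that is by absence from the BPP list, so their absence there is a description and not a result. In the other direction, 1380 of 5427 BPP gene-end peaks had no CTR peak within 1 kb (25.4%). By gene, 1574 of 19974 protein-coding genes (7.88%) had a CTR-only gene-end peak, which is 25.3% of the 6223 genes with any CTR gene-end peak, and 1583 genes (7.93%) had a BPP-only one.

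H3K27ac is placed mainly by the acetyltransferases p300 and CBP and is removed by histone deacetylases. It marks nucleosomes that flank active promoters and enhancers and is read by bromodomain proteins. At promoters within CpG islands, GC-rich stretches that keep many CpG dinucleotides, it usually lies on the first nucleosomes downstream of the start site.

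Promoters overlapped by the strongest members are shown because base composition and motifs are compared below. The 6 sequences are those of BCL6, SRD5A1, VCP, SLC35E2B, SLBP and CNBP, 6 genes among those with the highest −log10 q whose RefSeq promoter (250 bases before the start and 50 after it, GRCh38.p14) a member overlapped. Each is written 5′ to 3′ on the strand of its gene, and capitals mark matches of the motifs searched, on either strand. BCL6 lies at chr3:187745419-187745718 (minus strand), SRD5A1 at chr5:6633190-6633489 (plus) and VCP at chr9:35072576-35072875 (minus). SLC35E2B lies at chr1:1692746-1693045 (minus), SLBP at chr4:1712270-1712569 (minus) and CNBP at chr3:129183847-129184146 (minus).
BCL6: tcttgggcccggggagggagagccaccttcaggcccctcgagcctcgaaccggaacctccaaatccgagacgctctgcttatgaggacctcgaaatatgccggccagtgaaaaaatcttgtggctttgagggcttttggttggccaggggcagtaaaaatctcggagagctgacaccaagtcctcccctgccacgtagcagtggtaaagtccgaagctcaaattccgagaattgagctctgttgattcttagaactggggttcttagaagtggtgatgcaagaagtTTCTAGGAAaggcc
SRD5A1: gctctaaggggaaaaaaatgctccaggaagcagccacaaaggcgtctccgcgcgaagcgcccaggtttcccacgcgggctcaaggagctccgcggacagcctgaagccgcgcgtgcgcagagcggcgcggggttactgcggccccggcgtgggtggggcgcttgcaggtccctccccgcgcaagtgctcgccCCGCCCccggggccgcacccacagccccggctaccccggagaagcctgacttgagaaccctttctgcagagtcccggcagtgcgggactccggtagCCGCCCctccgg
VCP: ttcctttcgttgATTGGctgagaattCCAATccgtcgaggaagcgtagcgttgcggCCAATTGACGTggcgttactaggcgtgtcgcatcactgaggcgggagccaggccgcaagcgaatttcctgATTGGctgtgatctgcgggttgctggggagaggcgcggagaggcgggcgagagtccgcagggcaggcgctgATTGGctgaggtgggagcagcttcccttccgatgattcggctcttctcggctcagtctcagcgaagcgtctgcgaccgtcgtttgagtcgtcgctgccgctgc
SLC35E2B: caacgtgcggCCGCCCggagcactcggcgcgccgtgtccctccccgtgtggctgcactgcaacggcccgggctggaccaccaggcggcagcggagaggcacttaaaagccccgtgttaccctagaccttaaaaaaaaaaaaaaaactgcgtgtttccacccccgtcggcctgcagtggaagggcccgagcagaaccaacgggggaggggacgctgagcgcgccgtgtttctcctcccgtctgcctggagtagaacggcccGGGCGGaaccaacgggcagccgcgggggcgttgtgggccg
SLBP: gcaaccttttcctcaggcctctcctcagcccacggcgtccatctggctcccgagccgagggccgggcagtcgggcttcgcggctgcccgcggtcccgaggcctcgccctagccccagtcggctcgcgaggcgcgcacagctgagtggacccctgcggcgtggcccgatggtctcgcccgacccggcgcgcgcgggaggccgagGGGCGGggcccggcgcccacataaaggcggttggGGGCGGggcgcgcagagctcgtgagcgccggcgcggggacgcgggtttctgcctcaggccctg
CNBP: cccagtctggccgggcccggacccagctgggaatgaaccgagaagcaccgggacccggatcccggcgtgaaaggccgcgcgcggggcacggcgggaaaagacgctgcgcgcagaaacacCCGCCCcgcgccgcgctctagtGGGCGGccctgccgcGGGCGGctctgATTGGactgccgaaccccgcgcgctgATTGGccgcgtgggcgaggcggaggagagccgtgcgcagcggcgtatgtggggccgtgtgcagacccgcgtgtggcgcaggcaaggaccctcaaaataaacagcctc

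In these promoters the capitals in SRD5A1, SLC35E2B, SLBP and CNBP mark the GC box GGGCGG, with 3 matches in CNBP and 2 in each of the others. The VCP promoter held 5 matches of the CCAAT box (CCAAT or its reverse complement ATTGG) and 1 of TGACGT, part of the cyclic AMP response element, directly after the third of them. The BCL6 promoter held none of these and 1 match of TTCCTNGAA, the site of the BCL6 protein, on the other strand. GC content was 53% in BCL6 and 61.3% in VCP, and lay between 67.0% and 76.7% in the other 4. The peaks covered all 300 bases in SRD5A1, SLC35E2B and CNBP, and 225 in BCL6, 177 in SLBP and 94 in VCP. In these last 3 promoters every match named above lay outside the peak, and in the others every match lay under it. A match describes the letters and does not show that a factor was bound.

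The strongest members lay at starts of genes with diverse roles. The 24 with the highest −log10 q (the authors' significance per peak, false discovery corrected) reached down to a value of 23.4. All 18 of the 24 with a known strand for every gene they touched reached a gene start, and 5 lay over windows of 2 or more genes. At the top of the list stood BCL6, a transcriptional repressor that recruits deacetylase complexes, with a fold (the authors' enrichment over background) of 13 and a −log10 q of 89.7 at chr3:187745494-187745842. Next came the peak shared by NSUN2, an RNA cytosine methyltransferase, and SRD5A1, a steroid reductase, at chr5:6632845-6633571 (fold 9.39, −log10 q 53.7). The BPP peak nearest to BCL6 was 6.22 kb away, and that nearest to NSUN2 and SRD5A1 was 78.6 kb away. For 12 of the 24 the nearest BPP peak was more than 10 kb away.

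Other peaks of the 24 are given here with the known role of each gene. VCP, the ATPase that extracts ubiquitylated proteins, had a fold of 7.33 (chr9:35071665-35072669). NSFL1C, which encodes the VCP cofactor p47, had a fold of 8.23 at chr20:1466362-1466878, 111 kb from a BPP peak. CCPG1, a receptor for autophagy of the endoplasmic reticulum, and the adjacent PIERCE2 shared a peak with a fold of 7.17. NCOA4, the receptor for autophagy of ferritin, had a fold of 8.41 and lay 213 kb from the nearest BPP peak.

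SLBP, a binding protein of histone mRNA, had a fold of 7.24 and CNBP, a zinc-finger protein that binds nucleic acids, 7.35. CPSF7, a pre-mRNA cleavage factor, and SDHAF2, an assembly factor of succinate dehydrogenase, shared a peak with a fold of 8.51 at chr11:61429501-61430316. TACO1, an activator of mitochondrial translation, had a fold of 8.33, and PAXIP1, an adaptor of DNA damage signalling and of histone methyltransferase complexes, 7.72. POLR3E, a subunit of RNA polymerase III, had a fold of 7.30 and was the 1 gene of the 24 peaks with a BPP gene-end peak elsewhere in its windows. CSNK1D, casein kinase 1 delta, closed the 24 with a fold of 5.33. IMPA2, an inositol monophosphatase, had a fold of 6.91 and was the only one of the 24 with an IgG peak within 1 kb, which overlapped it. SLC35E2B has a near-identical neighbouring copy and RPS7 (fold 7.79) has processed copies elsewhere in the genome, so reads at these peaks may have been placed uncertainly.

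As a group the members were weaker and narrower than the gene-end peaks found in both lists. Their fold had a median of 4.73 (quartiles 3.95 and 5.66, range 2.16 to 13), against 5.33 for the 4024 shared gene-end peaks of the same CTR list. Median −log10 q was 6.81 against 10.3, and median width 453 bp against 670.5 bp. They were stronger and wider than the 4005 CTR-only peaks away from gene ends, where the medians were 4.41, 5.27 and 378 bp. At the lower edge stood CDRT15 (−log10 q 2.52), TCP11 (2.59) and SGK3 (2.64).

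The share of CTR gene-end peaks that were members was larger among weaker peaks. Ranked by −log10 p in 10 equal parts, it was 5.93% in the strongest part and 48.2% in the weakest. For BPP gene-end peaks without a CTR counterpart the corresponding shares were 1.10% and 55.9%. Depth was unknown for both libraries, and a peak may be missing from a list because it fell just under the caller's threshold; the part of depth in these shares was not tested.

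**Figure D1:**
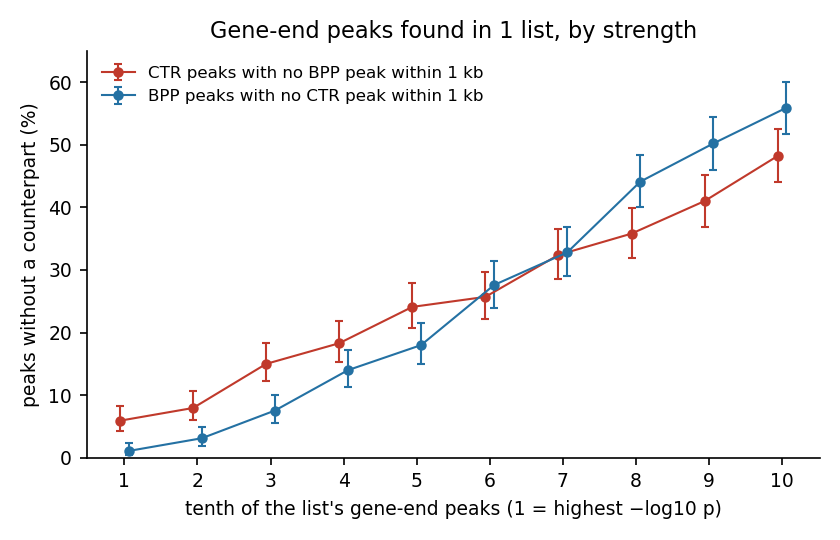
Share of gene-end peaks without a counterpart within 1 kb in the other H3K27ac list (y axis, percent) in 10 equal parts of each list's gene-end peaks, ranked by −log10 p (x axis, 1 is strongest). Points are shares and bars 95% Wilson intervals; the CTR share goes from 5.93% to 48.2% and the BPP share from 1.10% to 55.9%.

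The distance of members to the nearest BPP peak, which the rule used, had a median of 27 kb (quartiles 8.94 and 71.1 kb). For BPP-only gene-end peaks the median distance to a CTR peak was 24.6 kb (9.65 and 60.1 kb). For 183 members (13.3%) the distance was within 5 kb, for 543 (39.5%) between 10 and 50 kb and for 248 (18.1%) beyond 100 kb, against 12.1%, 44.6% and 15.1% of BPP-only peaks. The rule's limit of 1 kb fell between near neighbours. SLC61A1 (1.00 kb), MARK2 with RCOR2 (1.02 kb) and TMSB10 (1.02 kb) lay just past it, and TXN (0.997 kb), CDK17 (0.987 kb) and PRKD3 (0.985 kb) just within it. An IgG peak lay within 1 kb of 39 members (2.84%), against 2.34% of shared CTR gene-end peaks and 1.45% of BPP-only gene-end peaks. The difference from the BPP-only peaks was 1.39 percentage points (0.306 to 2.53).

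Of the 1574 genes with a member, 1429 (90.8%, 89.3 to 92.1) had no BPP gene-end peak at all. The rule itself favours such genes, and in the other direction 1334 of 1583 genes with a BPP-only peak (84.3%) had no CTR gene-end peak. For 438 of the 1429 (27.8% of the 1574) a BPP peak lay elsewhere over the gene, and for 991 (63.0%) none lay at the ends or over the gene. The other 145 genes (9.21%) had a BPP peak at another place in their windows, as HDAC1 did. HDAC1, a class I deacetylase named in the title of the series, had 1 CTR peak (chr1:32334543-32335149, fold 3.20, −log10 q 4.89) and it was a member, with a BPP peak 1.67 kb away. This member also lay in a window of the neighbouring gene MARCKSL1. The HDAC1 peaks thus count as CTR-only and BPP-only although both lay near the same gene end. Whether this was the start of HDAC1 or its end of transcription is not reported here. Neither of the other 2 genes in the title was among the members' genes: BIN2 had no gene-end peak and the CTR peak of RPS6, a ribosomal protein, overlapped a BPP peak.

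The members were mostly peaks of gene starts. Strand was known for every gene touched in 1109 of the 1373 members, and 1022 of these (92.2%, 90.4 to 93.6) reached the window at a gene start. The other 87 (7.84%) reached only the window where a gene ends. Among BPP-only gene-end peaks 823 of 1097 reached a start (75%) and 274 lay only at the end of a gene (25%). The difference in the share at a start was 17.1 percentage points (Newcombe interval 14.1 to 20.1). It was 2.72 points (0.851 to 4.88) when peaks of both lists had a fold of 5 or more, and 4.24 points (2.15 to 6.62) among the top 5000 of each list. Shared CTR gene-end peaks reached a start more often than members, in 96.0%, a difference of -3.83 points (-5.67 to -2.22). This difference was -0.51 points in the top 5000, with an interval that included 0 (-1.85 to 0.593), -1.36 at a fold of 5 or more, -1.7 with windows of 500 bp and -6.24 with windows of 2 kb.

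Peaks at gene ends proper were weaker in every class. Among members the median fold was 4.88 at starts and 3.99 at ends only, and in the BPP-only peaks it was 4.38 and 3.34. Read by side, 24.2% of CTR peaks at a start were members and 39.4% of those at an end only. In the BPP list the shares without a CTR counterpart were 20.4% at a start and 64.9% at an end only. Peaks at an end only numbered 221 in CTR and 422 in BPP, and depth and treatment cannot be told apart in these counts.

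**Figure D2:**
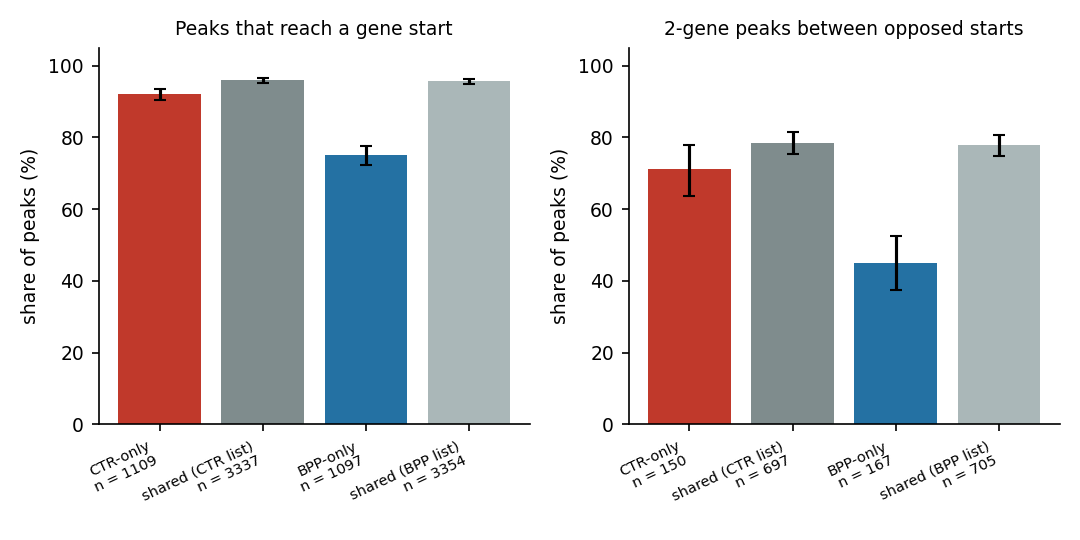
Left, share of gene-end peaks that reach a gene start (y axis, percent), among peaks with strand known for every gene touched; right, share of peaks over exactly 2 genes that lie at 2 starts on opposite strands. Bars are the 4 classes of peaks with 95% Wilson intervals; CTR-only peaks reach 92.2% and 71.3%, BPP-only peaks 75% and 44.9%.

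Members touched more than 1 gene less often than shared peaks. They were also narrower (median 453 bp against 670.5 bp), and the part of width in this difference was not tested. Windows of 2 or more genes were overlapped by 230 members (16.8%), against 23.7% of shared CTR gene-end peaks, a difference of -6.93 points (-9.24 to -4.50), and 19.4% of BPP-only peaks. Of the 150 members over exactly 2 genes with known strand, 107 (71.3%) lay at 2 starts on opposite strands, as in a divergent promoter. Examples were CPSF7 with SDHAF2, CCPG1 with PIERCE2, ZNF10 with ZNF891, and IFT25 with LRRC42. The same arrangement made up 44.9% of such peaks in the BPP-only class and 78.5% in the shared class. Peaks between 2 gene ends were 6% of the members' pairs and 21.6% of the BPP-only pairs.

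The summits of members lay just downstream of gene starts. For the 1048 members in a start window with known strand, the summit was at a median of 161 bp downstream of the gene start (quartiles -69 and 342 bp). The fullest bin, 100 to 200 bp downstream, held 18.3% of them. The summit was downstream in 71.0% of members, in 68.4% of shared CTR peaks and in 61.8% of BPP-only peaks. It lay within 200 bp of the start in 39.6%, 42.0% and 29.3%. Against BPP-only peaks these were differences of 9.22 points (4.94 to 13.5) and 10.3 points (5.95 to 14.5), and against shared peaks 2.64 (-0.583 to 5.75) and -2.41 (-5.78 to 1.02). By position the members at starts were therefore not distinguished from shared peaks beyond counting error, and were from BPP-only peaks.

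**Figure D3:**
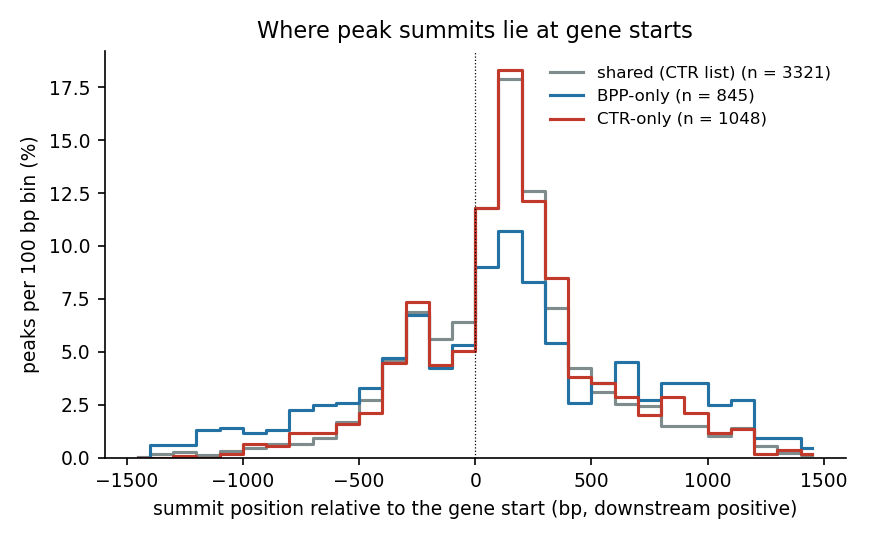
Position of peak summits relative to the nearest gene start (x axis, bp, downstream positive) as the share of peaks per bin of 100 bp (y axis, percent). Lines are CTR-only (n = 1048), shared CTR (n = 3321) and BPP-only (n = 845) peaks; the CTR-only and shared lines run close together with their highest bin at 100 to 200 bp.

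The promoters at these starts were more GC-rich than those of the other marked genes. Of 1131 promoters whose start window held a member, 889 (78.6%, 76.1 to 80.9) had a GC content of 60% or more, and their median GC content was 67.0%. The share was 68.0% at shared peaks, 71.0% at BPP-only peaks, 54.1% at starts without an H3K27ac peak and 60.6% of all 14542 promoters. Members exceeded shared peaks by 10.6 points (7.74 to 13.4) and BPP-only peaks by 7.59 points (3.74 to 11.5). The observed to expected ratio of CpG had a median of 0.874 at members, 0.853 at shared and 0.824 at BPP-only peaks. The share was 79.1% for members above the median −log10 q and 78.1% for those below it.

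The 15 motifs listed here were searched in the same promoters on both strands, and several differed in frequency; as base composition differs too, each was also read within promoters of 60% GC or more. The CCAAT box, bound by NF-Y, was in 34.0% of members' promoters, 40.2% of shared, 39.5% of BPP-only and 36.7% of all promoters. Members fell short of shared peaks by -6.17 points (-9.31 to -2.94), and within GC-rich promoters by -3.44 (-6.98 to 0.198). The GC box GGGCGG, bound by SP1, was in 73.6%, 68.7%, 69.0% and 59.1%. Its excess over shared peaks was 4.89 points (1.86 to 7.80), and 3.01 (-0.0427 to 5.87) within GC-rich promoters. Both intervals thus included 0 among GC-rich promoters. Below 60% GC (242 members' and 1176 shared promoters) the CCAAT difference was -8.69 points (-15.4 to -1.78), an interval that excluded 0. That of the GC box was -5.08 (-11.7 to 1.81).

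Other motifs were rarer. The TATA box TATAAA was in 3.71% of members' promoters, 5.83% of shared, 5.59% of BPP-only and 9.76% of all promoters. It was lower at members than at shared peaks by -2.12 points (-3.36 to -0.661), and by -1.36 (-2.36 to -0.123) in GC-rich promoters. The E-box CACGTG was in 12.2% of members' promoters, 9.97% of shared, 10.1% of BPP-only and 8.95% of all; the excess over shared peaks was 2.23 points (0.184 to 4.47), and 2.72 (0.285 to 5.38) in GC-rich promoters. The ETS site CCGGAAG was in 23.1%, 26.1%, 19.2% and 14.7%, and the YY1 site AAGATGGC in 5.31%, 7.52%, 5.24% and 4.06%. Against shared peaks these were differences of -3.02 points (-5.79 to -0.118) and -2.21 points (-3.68 to -0.54), whose intervals included 0 within GC-rich promoters: -3.18 (-6.35 to 0.152) and -0.732 (-2.46 to 1.25). Below 60% GC they were -2.31 (-7.89 to 3.94) for the ETS site and -6.38 (-8.7 to -3.05) for the YY1 site. For the TATA box and the E-box the differences there were -0.578 (-4.48 to 4.32) and -0.652 (-3.92 to 3.69). The BCL6 site TTCCTNGAA was in 0.531% of members' promoters, 1.28% of shared, 0.582% of BPP-only and 1.32% of all promoters. Its difference from shared peaks was -0.75 points (-1.26 to -0.052), and -0.537 (-0.992 to 0.115) within GC-rich promoters.

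The remaining 8 motifs (shares in members, shared peaks and all promoters) had intervals of the difference from shared peaks that included 0. They were the NRF1 site GCGCATGCG (5.48%, 4.93% and 2.86%), the cyclic AMP element TGACGTCA (3.36%, 4.11% and 2.67%) with its shorter form TGACGT (13.4%, 15.0% and 9.83%), and the ZBTB33 site TCTCGCGAG (2.03%, 2.45% and 1.10%). They were also the ZNF143 site ACTACAA (4.16%, 4.25% and 3.14%), the E2F sites TTTCGCGC (1.24%, 1.66% and 0.846%) and TTTGGCGC (1.15%, 1.5% and 0.901%), and the AP-1 site TGANTCA (3.09%, 4.17% and 5.67%). Every TGACGTCA also counts as TGACGT. Within promoters below 60% GC alone, the NRF1 difference from shared peaks was 3.27 points (0.292 to 7.41). Against BPP-only peaks, the AP-1 difference within GC-rich promoters was -2.5 points (-4.65 to -0.643). At any GC content, the differences from BPP-only peaks were -5.42 (-9.7 to -1.15) for the CCAAT box and 4.53 (0.528 to 8.56) for the GC box. They were 3.87 (0.229 to 7.43) for the ETS site and -1.87 (-3.86 to -0.0241) for the TATA box. Of these, only the TATA interval excluded 0 within GC-rich promoters. None of the motif intervals was adjusted for their number.

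**Figure D4:**
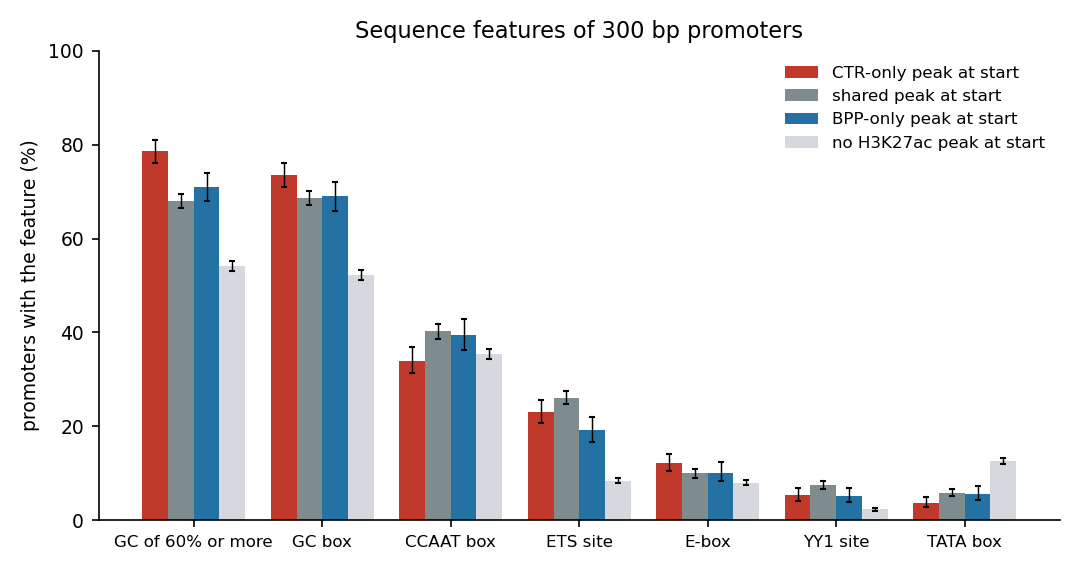
Share of RefSeq promoters of 300 bp with a GC content of 60% or more or with a match of a motif (y axis, percent), for genes with a CTR-only, shared, BPP-only or no H3K27ac peak in the start window. Bars are shares with 95% Wilson intervals; CTR-only promoters have the highest share of GC-rich sequence, 78.6%.

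The genes with members were then read by function in 35 gene lists holding 3126 distinct genes, of which 369 had a member and 357 a BPP-only gene-end peak. Because many lists hold constantly active genes, each count is set beside the genes of the list with any CTR gene-end peak; over all genes the share of these with a member was 25.3%. Of the 32 lists with at least 10 such genes, 11 were above this share and 21 below it. The lists are described by counts only, with no interval and no test of a list, and shares on few genes are imprecise. BPP-marked genes are those with any BPP gene-end peak, and their overall share with a BPP-only peak was not computed.

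Of these 32 lists, those of lipid synthesis and growth signalling had the highest shares, on 24 and 20 CTR-marked genes. In cholesterol and fatty acid synthesis 10 of 24 CTR-marked genes had a member (41.7%), with a median fold of 5.22 against 4.73 over all genes with a member. In the list 6 of 20 BPP-marked genes had a BPP-only peak, and none of the 10 had a BPP gene-end peak. They included SQLE, the squalene epoxidase (fold 7.54, chr8:124997741-124998352), and SREBF2, the transcription factor of sterol synthesis (fold 5.56, chr22:41832466-41833057). DHCR7, FASN, INSIG1, LSS, MSMO1, MVD and ELOVL1 were others. The list also counts SRD5A1, a steroid reductase, through the peak it shares with NSUN2. In the receptor tyrosine kinase and MAPK list it was 9 of 20 (45.0%, median fold 5.21), with BPP-only peaks at 3 of 17 BPP-marked genes. Of the 9 genes with a member 6 had no BPP gene-end peak, against 90.8% over all genes with a member. BRAF, a kinase of that cascade, had a fold of 6.71, the phosphatase gene PTPN11 shared a peak of 5.54 with RPL6, and MAP2K1, MAPK8, NF1, SOS2 and SPRY4 also had a member. The peak at SHC1, an adaptor, lay at the end of that gene and the start of PYGO2 (fold 3.79).

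Other lists above the overall share held metabolic and cell cycle genes. In glycolysis and hypoxia 7 of 18 had a member (38.9%) and 4 of 14 BPP-marked genes a BPP-only peak. The members' genes included PGAM1 (fold 5.55), ENO1 (4.36) and LDHA (4.52). The BPP peaks nearest to ENO1 and LDHA lay 1.25 and 1.42 kb away, close to the rule's limit. In the BPP list 10 of 33 marked genes of cell cycle and replication had a BPP-only peak. With a CTR-only peak there were 15 of 39 CTR-marked genes (38.5%), with a median fold of 4.13. They included RFC5, a clamp loader subunit (fold 7.19), MCM10, a replication initiation factor (5.19), and MCM2, MCM3, MCM6, CDC6, CCNE1 and WEE1. This count was 5 among the top 5000 of each list and 8 at a fold of 5 or more. In mTOR, PI3K and S6 kinase signalling 8 of 23 had one (34.8%), and in the BPP list 7 of 23 marked genes had a BPP-only peak. RRAGB, a GTPase of amino acid sensing, had a fold of 8.68, DEPTOR, an mTOR inhibitor, 7.25, and EEF2K, a kinase of elongation factor EEF2, 5.32, and MTOR and TSC2 were also among the 8.

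Genes of the acetylation machinery and its opponents were counted because the mark measured is an acetylation. Acetyltransferases and acetyl-lysine readers had members at 7 of 22 CTR-marked genes (31.8%, median fold 5.64) and BPP-only peaks at 5 of 17 BPP-marked genes. TADA1, a SAGA subunit, had a fold of 6.76, ACSS2, which makes acetyl-CoA from acetate, 6.03, and KAT8, an acetyltransferase of histone H4, 5.64 in a peak that also reached the end of BCKDK. ING2, ING3 and NCOA3 also had a member. Histone deacetylases and co-repressors had members at 8 of 24 (33.3%, median fold 3.82) and BPP-only peaks at 14 of 30 BPP-marked genes. Apart from BCL6 and HDAC1 they were SUDS3 (fold 4.26), RCOR2 (3.43), GPS2, KDM1A, RCOR3 and SIRT2. Members at RCOR2, RCOR3 and HDAC1 lay 1.02, 1.13 and 1.67 kb from a BPP peak, close to the rule's limit. Of the 8 genes 6 had no BPP gene-end peak, against 90.8% over all genes with a member. Chromatin remodellers and methylation enzymes had members at 8 of 34 (23.5%), including EZH2, the H3K27 methyltransferase (fold 8.32, 29.5 kb from a BPP peak), SETD2, the H3K36 methyltransferase (6.92, 117 kb), and KDM6A, an H3K27 demethylase (5.19).

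Several lists of constitutive machinery, though not all, stood low by their share with a member. Aminoacyl-tRNA synthetases had a member at 1 of 23 CTR-marked genes (4.35%), IARS1 with a fold of 4.09. Replication-dependent histones had 3 of 43 (6.98%, at H3C6, H3C10 and H3C14), proteasome subunits 3 of 40 (7.50%, at PSMB6, PSMG2 and PSMB3) and mitochondrial ribosomal proteins 6 of 50 (12%). BPP-only peaks were at 5 of 27, 8 of 49, 4 of 38 and 16 of 56 BPP-marked genes of these lists. Cytosolic ribosomal proteins had members at 12 of 65 (18.5%), led by −log10 q by RPS7 (27.4), RPL35 with ARPC5L (22.2) and RPL27A with TRIM66 (19.3). They had BPP-only peaks at 16 of 64 BPP-marked genes. By contrast, mitochondrial import and carriers had members at 13 of 39 CTR-marked genes (33.3%), above the overall share, and chaperones at 12 of 49 (24.5%). BPP-only peaks were at 7 of 35 and 8 of 45 BPP-marked genes of those 2 lists. Peaks at near-identical copies, as among histone and ribosomal protein genes, may carry misplaced reads. Some counts moved by over 1.5 times with the thresholds: at a fold of 5 or more in both lists the deacetylase list had 4 genes with a member, glycolysis 4, chromatin remodellers 5 and proteasome subunits 7, and in the top 5000 of each list cytosolic ribosomal proteins had 7.

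**Figure D5:**
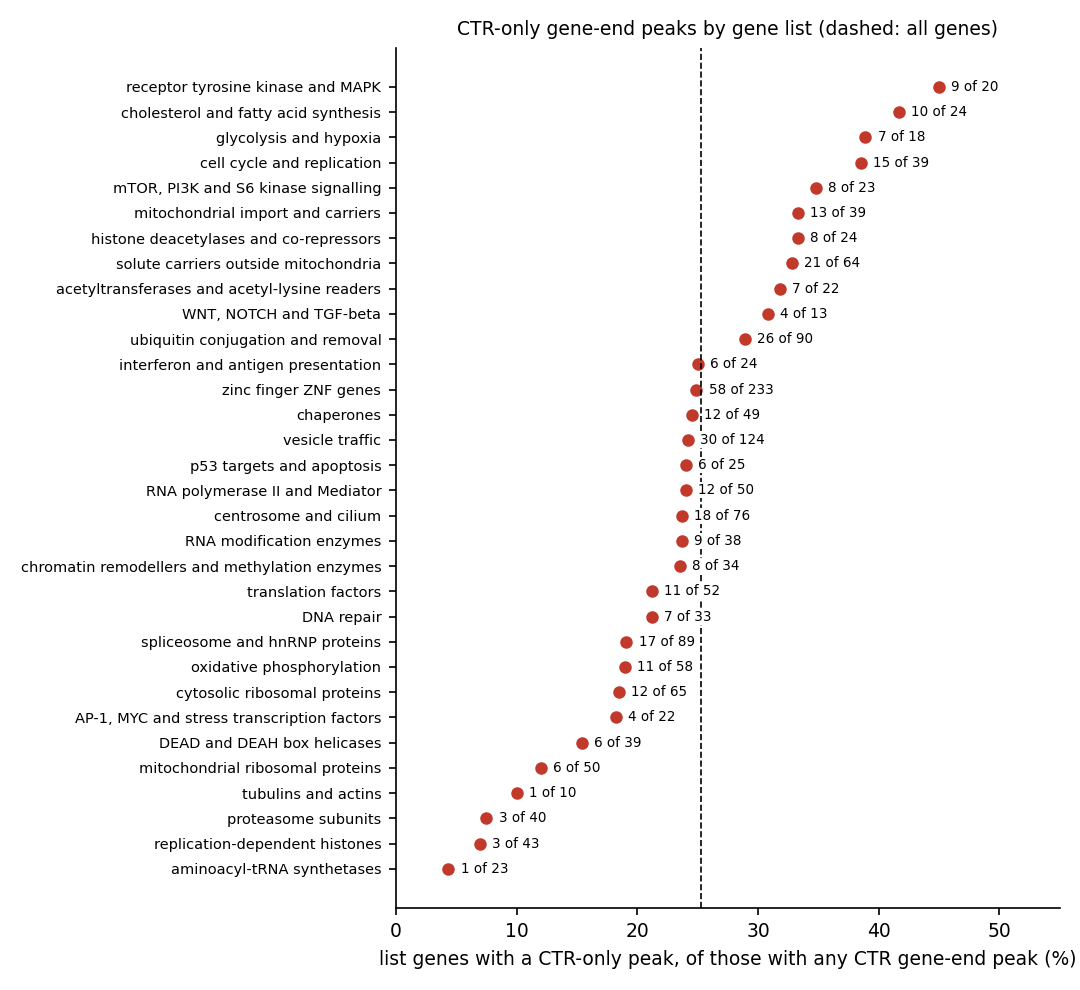
Share of genes with a CTR-only gene-end peak among genes of each list with any CTR gene-end peak (x axis, percent), for the 32 lists with at least 10 such genes (y axis). Labels give the counts and the dashed line the 25.3% over all protein-coding genes; the lists span 4.35% for aminoacyl-tRNA synthetases to 45.0% for receptor tyrosine kinase and MAPK genes.

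Several large lists lay near the overall share. Zinc finger ZNF genes had members at 58 of 233 (24.9%, median fold 5.39), with the highest fold of 10.3 at the divergent pair ZNF10 and ZNF891 (chr12:133129884-133130689). Vesicle traffic genes had 30 of 124 (24.2%), among them RAB2A (fold 7.11) and SEC23A (6.59), and ubiquitin conjugation and removal 26 of 90 (28.9%), among them UBA6 (6.59) and UBE2W (7.21). RNA polymerase II and Mediator genes had 12 of 50 (24%), with CDK8 at a fold of 7.2. The list of AP-1, MYC and stress transcription factors was lower, with 4 of 22 (18.2%), and solute carriers outside mitochondria higher, with 21 of 64 (32.8%). Members also lay at HIF1A, the hypoxia factor (fold 5.73, with a BPP peak 2.12 kb away), CREB1 (5.58), MAX (4.73) and GADD45A (5.97).

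Few cell identity genes had any CTR gene-end peak, too few to set their members against the overall share of 25.3%. None of the 28 ovarian and epithelial marker genes had a member, and 3 had a CTR gene-end peak of any kind (KRT8, KRT18 and MUC1). In the BPP list 5 had one, the same 3 genes with ELF3 and MSLN. The other genes of the list, PAX8, EPCAM and CDH1 among them, had no gene-end peak in either H3K27ac list. Of 35 mesenchymal and matrix genes 6 had a CTR gene-end peak, VIM and ZEB1 among them, and TWIST1 alone had a member (fold 4.09). None of 21 immune cell markers had one; 2 had a CTR gene-end peak (CD68 and SPI1), and PTPRC had none.

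Members were spread over all chromosomes, at uneven shares. The share of CTR gene-end peaks that were members was lowest on chromosome 1, with 118 of 626 (18.8%, 16 to 22.1), and highest on chromosome 13, with 27 of 62 (43.5%, 31.9 to 55.9). Chromosomes 7 (83 of 245, 33.9%) and 16 (70 of 211, 33.2%) were also high. On chromosome 16 the share of BPP peaks without a CTR counterpart was high as well (39.4%), while on chromosome 7 it was 25.4%, a difference of 8.45 points (0.234 to 16.5). On chromosome 19 the members' share was below that of BPP, 23.5% against 31.5%, a difference of -8.03 points (-13.9 to -2.05), and on chromosome 17 by -7.36 points (-14.1 to -0.462). The shares moved with the thresholds: chromosome 1 was at 33.9% at a fold of 5 or more and 31.8% in the top 5000 of each list, and chromosome 13 at 66.7% (12 of 18) in the top 5000. For the other 20 chromosomes the interval of the difference included 0, and none of the 23 intervals was adjusted for their number.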

How the data were processed

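CUT&Tag peak lists of 3 libraries (BPP, CTR and IgG, 1 each, grouped by their titles) were analysed. The tools named in the submitters' processing notes are Bowtie2 2.4.1, deepTools 3.3.0 and fastp, with GRCh38.p13 (hg38) as build. The sources used here do not name a peak caller, its settings or a control. There is 1 list per library, deposited by the authors. The deposited score is the −log10 p multiplied by 10, without its decimals. The fold is a ratio over a background the authors did not describe, and the deposited −log10 p and −log10 q values are the authors'. These values were used to rank, describe and filter peaks within a list. Reads per library were not given, so depth is unknown.

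The lists held 17841 BPP, 14836 CTR and 7701 IgG peaks on chromosomes 1 to 22 and X; 28, 37 and 14 others were left out. A peak overlapped a window from 1 bp. Genes (19974 protein-coding) came from RefSeq GRCh38.p14; strand and promoters came from the RefSeq promoter table for 15813 of them, and 4161 had none. For motifs, 1 promoter per gene was used, whose start lay within 1 kb of the gene's own. A promoter with a member was classed so even where its gene also had another peak. Shares carry 95% Wilson and differences Newcombe intervals, which treat peaks as independent and cover counting error only.

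The members and gene lists were chosen with earlier results of these data known. Genes named are those of the 24 members with the highest −log10 q, up to 3 per list, BIN2, HDAC1 and RPS6, members at the limits of the rule and genes with most members; further genes of the lists are named only as examples within a count, and a few genes that this rule takes are not reported here. Among the highest, 2 peaks whose gene has no approved symbol were left out. Python 3.11.15 was used with pandas 2.3.3, numpy 2.4.6, matplotlib 3.10.9 and scipy 1.17.1; distances and overlaps were checked against bedtools 2.31.1 on simulated data. Promoters were printed in order of −log10 q, with chromosome 8 left out. Alternatives changed the window, the distance that counts as shared, the thresholds, the number of peaks, peaks near IgG and the joining of close peaks.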

Additional observations from a re-analysis of the deposited data

How the results depend on the processing

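The counts of members, genes and lists, 4 chromosome shares, the shares at starts, over 2 or more genes and near IgG, the GC-rich promoters and the CCAAT, GC and TATA boxes were recomputed with windows of 500 bp or 2 kb, other distances, stricter thresholds, the top 5000 peaks of each list, peaks near IgG left out and peaks within 1 kb joined. The number of members stayed between 967 and 1643. The share of CTR gene-end peaks that were members (25.4%) was 30.4% with overlap required, 22% with sharing within 5 kb, 26.7% at −log10 q of 5 or more in both lists and 22.3% where only their own list was so filtered, 36.9% at a fold of 5 or more and 37.1% in the top 5000. Its difference from the BPP list (0.0116 points) became -3.45 with 2 kb windows, and 2.54 with 500 bp windows, 8.83 at a fold of 5 or more and 6.59 in the top 5000. The share of members at a gene start (92.2%) was 95.4% with 500 bp and 88.0% with 2 kb windows, 94.5% and 94.7% under the −log10 q thresholds on both lists or their own, 97.8% at a fold of 5 or more and 98.0% in the top 5000, where its difference from shared peaks was -0.51 points, with an interval that included 0. The share over 2 or more genes (16.8%) was 19.7% with 2 kb windows, 18.8% at −log10 q of 5 or more in both lists and 19.8% in the top 5000. The share of genes without a BPP gene-end peak (90.8%) was 95.3% with 500 bp and 81.0% with 2 kb windows, 77.7% with overlap required, 93.8% within 5 kb, 92.9% and 93.4% under the −log10 q thresholds, 98.6% at a fold of 5 or more and 98.1% in the top 5000. The TATA difference was -1.33 points at a fold of 5 or more and -1.42 in the top 5000, and, in GC-rich promoters only (chosen after seeing the data), the CCAAT and GC box differences were -3.44 and 3.01. The cause of these changes was not tested. Summit positions, gene pairs, strength, distances and the other motifs were not recomputed, except the motifs within GC-rich promoters. The excess of GC-rich promoters kept its direction, with intervals above 0, in all these alternatives, between 5.23 and 13.5 points over BPP-only and between 9.55 and 12.8 over shared peaks. Of the 24 named peaks, 19 remained when sharing reached 5 kb. No paired analysis was possible because each group had 1 library. Unknown depth limits every statement on absence from a list.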

Other observations

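Some members lay in runs of consecutive CTR gene-end peaks. Most runs were short: 197 held 2 members, 7 held 5 and 2 held 6, against 188, 10 and 3 runs of BPP-only peaks. The following were chosen after their values were seen. On chromosome 3, 6 consecutive CTR gene-end peaks within 169 kb (chr3:52287429-52456550) were all members. They lay at GLYCTK, DNAH1, BAP1, PHF7, TNNC1 and NISCH, with folds of 2.85 to 5.25 and −log10 q of 3.91 to 15.6. BAP1, a deubiquitinase of chromatin, had 3 of them, more than any other gene. The same span held 2 BPP peaks, and the members at TNNC1 and NISCH lay 2.43 and 2.06 kb from one. Around it lay a run of 4 consecutive BPP-only gene-end peaks (chr3:52197406-52537070), at ALAS1, PPM1M, TNNC1 and UQCC5. The region thus held gene-end peaks found in 1 list only on both sides. On chromosome 7, 4 consecutive members within 162 kb (chr7:99919369-100081787) lay at TRIM4, ZKSCAN1, ZSCAN21 and ZNF3, with folds of 4.88 to 5.99 and no BPP peak in the span. ZKSCAN1, ZSCAN21 and ZNF3 encode zinc finger proteins. On chromosome 13, 5 consecutive members (chr13:27450073-29850121) lay at MTIF3, PAN3, POMP, SLC7A1 and UBL3, with folds of 5.14 to 6.64, again without a BPP peak in the span. Other runs of 5 members spanned many BPP peaks, 19 on chromosome 4 (chr4:1684818-2242051) and 18 on chromosome 16 (chr16:1964422-2239139). Runs of BPP-only peaks were as long or longer. The longest held 10 consecutive BPP gene-end peaks on chromosome 19 (chr19:1065716-1402836, ABCA7 to GAMT) with folds of 2.77 to 3.63. Whether neighbouring peaks vary together was not tested, and the chance of such runs was not computed.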
